A study of Rattus norvegicus with 48 samples.

Results

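Classical neutrophil transcripts were followed through the lungs of rats that breathed fracking sand dust together with diesel particles, or filtered air. The 9 genes were S100a8, S100a9, Csf3r, Cxcr2, Fpr1, Mpo, Trem1, Padi4 and Cd177, chosen by gene name among 32285 identifiers, and each name belonged to 1 identifier. All rats were healthy male Sprague-Dawley animals exposed in whole-body chambers, and the labels give their weight range and no age. The exposed rats received fracking sand dust at 30 mg/m3 with diesel particles at 1.0 mg/m3, and the air rats received filtered air, both for 6 hours a day on 4 days. Lungs were taken 1, 7 or 27 days after exposure, with 8 air and 8 exposed rats at each time, or 48 libraries in 6 groups. No group received the dust or the diesel particles alone, so the contribution of either agent cannot be told apart.

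Neutrophils are short-lived white cells that leave the blood for injured or infected tissue and are usually the earliest cells to gather in an inflamed airway. They follow CXC chemokines and bacterial peptides through surface receptors such as Cxcr2 and Fpr1, mature and survive under granulocyte colony-stimulating factor through Csf3r, and carry large cytosolic stores of the S100a8-S100a9 heterodimer called calprotectin. The lung also holds a standing pool of these cells in its capillaries, so a lung with no inflammation still contains neutrophil RNA. RNA here came from a piece of whole lung, in which a change in the number of cells of a type and a change in RNA per cell cannot be told apart.

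Library totals ran from 9445687 to 14400337 expected counts, with a median of 12004528. The tissue label was checked against defining genes: surfactant protein C (Sftpc) lay between 6467 and 10390 CPM (the counts of a gene scaled to a common library size) in all libraries, and the squamous keratin Krt13 did not pass 0.278 CPM. Within groups, 4 pairs of libraries differed by only 1.44 to 1.67 times counting noise, against at least 2.43 times in the other 164 pairs. Exposed lungs held such pairs at day 1 (libraries 1 and 4) and day 7 (libraries 3 and 6), and air lungs at day 7 (libraries 1 and 4) and day 27 (libraries 3 and 6). Each such pair was averaged into 1 value for means and SD (n = 7 in those groups), while the tests kept every library and were repeated with the pairs summed. Air day 27 library 7 differed from libraries 1, 2 and 4 of its group by 10.55 to 12.06 times counting noise, against at most 7.98 times in any pair without it, and 0 members were called at day 27 with it or without it. The labels name no batch and do not say which rats shared a cage, so p-values measure the spread between these animals as deposited.

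Promoter sequences are shown for 3 members that varied together between animals, S100a9, Csf3r and Cxcr2, and for Cd177, which did not vary with them. They come from RefSeq (build GRCr8), which differs from the rat build Rnor_6.0 behind the counts, and run from 250 bases before to 50 bases after the annotated start. Capitals mark the motifs GAGGAA, a PU.1-type element which reads TTCCTC when it lies on the opposite strand, and TATAAA, the TATA box. The windows are chr2:178490573-178490872 (minus strand) for S100a9, chr5:143582970-143583269 (plus strand) for Csf3r, chr9:83178395-83178694 (plus strand) for Cxcr2 and chr1:89488394-89488693 (minus strand) for Cd177.
S100a9: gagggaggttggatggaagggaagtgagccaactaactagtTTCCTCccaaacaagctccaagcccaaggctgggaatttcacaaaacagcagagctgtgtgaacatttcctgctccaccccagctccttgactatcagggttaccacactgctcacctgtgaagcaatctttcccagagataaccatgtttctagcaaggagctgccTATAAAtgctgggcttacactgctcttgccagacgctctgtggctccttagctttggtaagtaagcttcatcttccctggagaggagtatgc
Csf3r: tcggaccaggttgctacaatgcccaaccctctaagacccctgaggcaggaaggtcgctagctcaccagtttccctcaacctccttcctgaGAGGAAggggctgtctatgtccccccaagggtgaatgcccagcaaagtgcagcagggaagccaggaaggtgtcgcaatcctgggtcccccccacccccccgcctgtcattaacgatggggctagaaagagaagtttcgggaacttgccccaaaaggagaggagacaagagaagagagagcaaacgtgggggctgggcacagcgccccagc
Cxcr2: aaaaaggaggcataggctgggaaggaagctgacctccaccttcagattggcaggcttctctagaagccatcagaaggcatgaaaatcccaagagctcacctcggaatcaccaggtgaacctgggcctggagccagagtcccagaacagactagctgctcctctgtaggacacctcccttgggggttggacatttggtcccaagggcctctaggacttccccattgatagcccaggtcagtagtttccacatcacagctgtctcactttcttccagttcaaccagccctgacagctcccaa
Cd177: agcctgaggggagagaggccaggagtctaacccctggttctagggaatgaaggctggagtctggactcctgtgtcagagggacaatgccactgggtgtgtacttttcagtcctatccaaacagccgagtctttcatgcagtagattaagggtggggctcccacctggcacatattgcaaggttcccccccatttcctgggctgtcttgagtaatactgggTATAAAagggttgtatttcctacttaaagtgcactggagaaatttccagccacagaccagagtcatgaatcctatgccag
The table held promoters for 7 of the 9 members, all but S100a8 and Padi4. On either strand, GAGGAA was present in 5 of the 7 windows (S100a9, Csf3r, Fpr1, Mpo and Trem1) and in 27.6% of 33469 promoters of the same length. TATAAA was present in S100a9, Trem1 and Cd177, and in 14.2% of all promoters. The C/EBP-type element TTGCNNAA was in none of the 7 windows and in 10.6% of all. The motifs did not overlap in these windows, and a match to letters is a description of the window only.

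At each day by itself, none of the 7 neutrophil markers with enough counts to test differed between exposed and air lungs after adjustment. Fpr1 and Mpo were not tested at single days. When the 3 days were averaged, Cd177 was higher in exposed lungs. S100a8 and S100a9, the calprotectin subunits, had overlapping ranges in both treatments at every day. Their highest single values came from library 1 of the exposed lungs at day 7. Their group means were highest in air lungs at day 1, for S100a9 at 113 CPM against 97.4 CPM in exposed lungs at day 7. Mpo, the azurophilic granule enzyme made by neutrophil precursors in bone marrow, was close to undetected throughout. Testing used edgeR's quasi-likelihood F test with Benjamini-Hochberg adjustment over all genes and a threshold of 0.05, by which 0 of the 7 members tested were called at day 1, day 7 and day 27. The background at these days was 0.0279% of 14314 genes, 0.0% of 14259 genes and 5.52% of 14192 genes called in either direction, so day 27 was the day with the most calls. At an unadjusted p under 0.05 the members numbered 2, 1 and 0, against 8.67%, 8.47% and 26.7% of all genes. The alternatives limma-voom and DESeq2 also called 0 members, except that DESeq2 called Cd177 at day 1. The CPM ranges of the treatments overlapped for all 9 members at all 3 days, while they did not overlap for 0.0768%, 0.0421% and 0.451% of genes tested at day 1, 7 and 27.

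**Figure D1:**
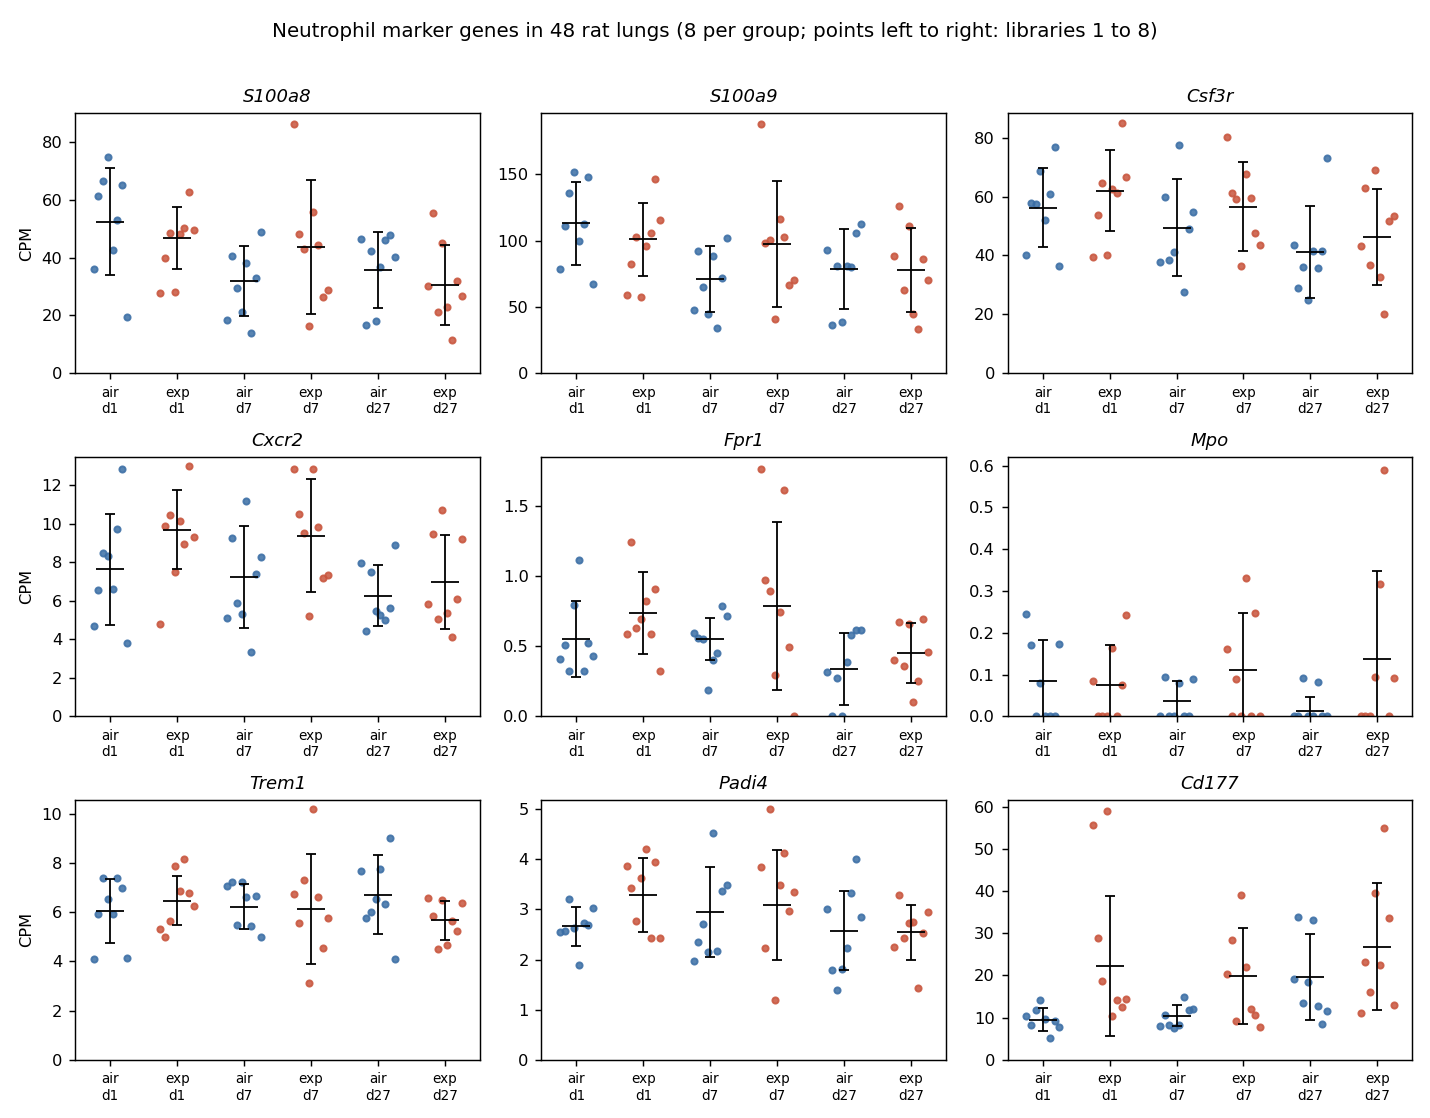
Each panel plots the CPM of 1 neutrophil marker gene (vertical axis, linear, from 0) in air (blue) and exposed (red) lungs at day 1, 7 and 27; points are the 8 libraries of a group in order of library number, the bar is the mean and the whiskers the SD with the closest library pairs averaged. The groups overlap in every panel, Cd177 reaches 58.93 CPM in exposed day 1 lungs against a highest value of 14.22 in air lungs of that day, and Mpo stays under 0.589 CPM.

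S100a9 had the most counts of the 9 members, 51063 over all libraries. It lay at 67.0 to 152 CPM in air day 1 lungs (median 112; 113 ± 31.0, SD, n = 8) and at 57.4 to 147 CPM in exposed day 1 lungs (median 99.3; 101 ± 27.5, SD, n = 7). At day 7 it lay at 34.2 to 102 CPM in air (median 68.3; 71.3 ± 24.9, SD, n = 7) and at 41.2 to 188 CPM in exposed lungs (median 99.3; 97.4 ± 47.4, SD, n = 7). At day 27 it lay at 36.6 to 112 CPM in air (median 80.9; 78.4 ± 30.2, SD, n = 7) and at 33.0 to 126 CPM in exposed lungs (median 78.1; 77.7 ± 31.7, SD, n = 8). The ranges overlapped at every day, and exposed day 7 library 1, at 188.3 CPM, was the highest of all 48. By edgeR, S100a9 in exposed over air lungs had a log2 fold change of -0.24 ± 0.21 (SE; adjusted p = 0.80) at day 1, 0.53 ± 0.30 (adjusted p = 0.65) at day 7 and -0.02 ± 0.29 (adjusted p = 0.98) at day 27. Ordered by mean, the S100a9 groups ran from air day 1 through exposed day 1, exposed day 7, air day 27 and exposed day 27 to air day 7, and neighbours in this order differed by less than 1 SD.

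S100a8, the partner subunit, had a log2 fold change of the same sign as S100a9 at each day. It lay at 19.6 to 75.1 CPM in air (median 57.4) and 27.8 to 63.0 CPM in exposed lungs (median 48.6) at day 1. At day 7 it lay at 13.9 to 49.0 CPM in air (median 31.3) and 16.4 to 86.4 CPM in exposed lungs (median 43.9), and at day 27 at 16.7 to 48.1 (median 41.3) and 11.5 to 55.5 CPM (median 28.5). The log2 fold change of S100a8 by edgeR was -0.24 ± 0.24 (SE), 0.52 ± 0.33 and -0.27 ± 0.30 at the 3 days, with adjusted p of 0.82, 0.68 and 0.59. The S100a9 CPM divided by the S100a8 CPM of the same library, a ratio with no length correction that serves only to compare libraries, was between 1.74 and 3.43 with a median of 2.20. Over the 48 libraries S100a8 spanned a factor of 7.498 between its lowest and highest value and S100a9 a factor of 5.71.

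Csf3r, the receptor for granulocyte colony-stimulating factor, differed little between treatments. Its values ran from 36.4 to 76.8 CPM in air (median 57.6) and from 39.3 to 85.02 CPM in exposed lungs (median 62.0) at day 1, from 27.6 to 77.6 (median 44.9) and 36.4 to 80.3 CPM (median 59.3) at day 7, and from 24.7 to 73.0 (median 38.6) and 20.01 to 69.0 CPM (median 47.5) at day 27. At most 1 exposed library stood above the highest air library at any day, and edgeR gave Csf3r log2 fold changes of 0.08 ± 0.17 (SE), 0.24 ± 0.20 and 0.19 ± 0.25, with adjusted p of 0.94, 0.79 and 0.66. Its ligand Csf3 had 6 counts in all 48 libraries together.

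Cxcr2, the receptor for Cxcl1 and Cxcl2 that draws neutrophils out of blood, had a median of 7.48 CPM in air lungs and of 9.62 CPM after exposure at day 1 (ranges 3.81 to 12.9 and 4.80 to 13.02). At day 7 its medians were 6.64 and 9.71 CPM (ranges 3.35 to 11.2 and 5.23 to 12.9), and at day 27 they were 5.55 and 5.98 CPM (ranges 4.46 to 8.92 and 4.12 to 10.7). At day 7, 6 of 8 exposed libraries lay above the air mean, and the ranges overlapped at every day. The Cxcr2 log2 fold changes by edgeR were 0.28 ± 0.22 (SE; adjusted p = 0.75), 0.43 ± 0.23 (adjusted p = 0.62) and 0.16 ± 0.20 (adjusted p = 0.64).

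Trem1, a receptor that amplifies inflammatory signalling in neutrophils and monocytes, lay between 3.14 and 10.2 CPM over all libraries, a factor of 3.257 and the smallest such factor of the 7 members never at 0. Its group means lay between 5.66 and 6.71 CPM. At day 27 all 8 exposed libraries (4.52 to 6.57 CPM, median 5.73) lay below the air mean of 6.71 ± 1.61 CPM (SD, n = 7), within an air range of 4.08 to 9.02 CPM. EdgeR gave that difference as -0.23 ± 0.14 on the log2 scale (SE; adjusted p = 0.31). Padi4, which converts arginine to citrulline in histones when neutrophils cast out their chromatin, lay at 1.89 to 3.21 CPM in air (median 2.66) and 2.42 to 4.21 CPM in exposed lungs (median 3.53) at day 1. For Padi4, 5 of the 8 exposed day 1 libraries stood above the highest air library, and the log2 fold change was 0.33 ± 0.15 (SE; unadjusted p = 0.041, adjusted p = 0.56, edgeR). At day 7 and day 27 the Padi4 log2 fold change was 0.20 ± 0.24 (SE) and -0.01 ± 0.21, with adjusted p of 0.86 and 0.98.

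Fpr1, the receptor for formylated bacterial peptides, and Mpo did not pass the filter on low counts at any single day. Fpr1 was at 0 in 3 of 48 libraries and reached 1.77 CPM, or 22 counts, with group medians between 0.35 and 0.82 CPM. Mpo had 42 counts in all, at most 7 in any library, and was at 0 in 27 of 48 libraries. A count of 0 allows up to 3 counts, or 0.208 to 0.318 CPM depending on the library, for counting error only. The azurophilic granule proteases were as scarce, with 17 counts for Elane, 52 for Prtn3 and 4 for Ctsg over all libraries. A difference in these azurophilic granule transcripts was therefore not detectable at this depth.

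Cd177, a surface glycoprotein of neutrophils, departed from the other members. In air lungs it lay at 5.07 to 14.2 CPM at day 1 (median 9.42; 9.52 ± 2.75, SD, n = 8), 7.49 to 14.9 CPM at day 7 (median 9.40; 10.5 ± 2.598, n = 7) and 8.56 to 33.8 CPM at day 27 (median 15.9; 19.7 ± 10.2, n = 7). In exposed lungs it lay at 10.4 to 58.9 CPM at day 1 (median 16.5; 22.3 ± 16.6, SD, n = 7), 7.80 to 39.1 CPM at day 7 (median 16.2; 19.9 ± 11.3, n = 7) and 10.97 to 55.0 CPM at day 27 (median 22.9; 26.8 ± 15.1, n = 8). All 8 exposed libraries at day 1, 6 of 8 at day 7 and 5 of 8 at day 27 lay above the air mean of their day, and the exposed groups held the wider spread. The highest day 1 values, 55.7 and 58.9 CPM, belonged to libraries 1 and 4, the pair that differed little beyond counting noise.

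By edgeR the Cd177 log2 fold change was 1.49 ± 0.40 (SE; unadjusted p = 0.0021, adjusted p = 0.33) at day 1, 0.89 ± 0.32 (unadjusted p = 0.0147, adjusted p = 0.48) at day 7 and 0.52 ± 0.37 (adjusted p = 0.38) at day 27. DESeq2 called the day 1 difference (1.49, adjusted p = 0.041), and with the close pairs summed it was 1.26 (adjusted p = 0.54, edgeR). Averaged over the 3 days in a fit of all 48 libraries, Cd177 rose by a log2 fold change of 0.96 ± 0.21 (SE; 1.95-fold, adjusted p = 0.0084, edgeR), with 19 of 24 exposed libraries above the air mean of their day. It was the only call among 8 members tested, 2 of which had an unadjusted p under 0.05 (26.1% of all genes), against 3.15% of 14852 genes called higher and 6.88% called in either direction by the same average. The call held when any 1 of the 48 libraries was left out (0.87 to 1.02, adjusted p 0.0032 to 0.0163) and with the close pairs summed (0.88, adjusted p = 0.0255).

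Values of other cells beside the Cd177 rise were as follows. Squamous epithelial keratins, which would come with tissue from the upper airway, were at or near 0, and the 5 squamous markers together reached at most 2.32 CPM in air day 1 and 2.193 CPM in exposed day 1 libraries. Monocyte markers were 0 of 6 called at day 1, beside 0.0279% of all genes (median log2 fold change 0.19). At an unadjusted p under 0.05 they numbered 5, against 8.67% of all genes, with Csf1r, Ccr2, Cx3cr1 and Vcan above 0 and F13a1 below 0 (-0.36 ± 0.15, SE; adjusted p = 0.50, edgeR). The monocyte list had a summed level of 299.7 to 358.5 CPM in air lungs and 333.3 to 404.8 CPM after exposure at day 1. It was 367.1 to 446.2 and 310.8 to 419.0 CPM at day 7, and 329.4 to 397.5 and 314.5 to 382.5 CPM at day 27. Its lowest gene, Ccr2, averaged 1.005 CPM in air day 1 lungs. For the average over 3 days 0 of the 6 monocyte markers were called, beside 6.88% of all genes (median log2 fold change 0.03). For the average over 3 days, 1 of 5 lung identity markers was called, beside 6.88% of all genes. It was the club cell secretoglobin Scgb1a1, at -0.27 ± 0.07 (SE; adjusted p = 0.020, edgeR). The summed lung identity level was 18320 to 24070 CPM in air lungs and 18200 to 21310 CPM after exposure at day 1, 18840 to 21440 and 17650 to 19920 CPM at day 7, and 22230 to 28520 and 18010 to 24170 CPM at day 27. The part of the monocyte and epithelial markers in the Cd177 result was not tested.

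The remaining members gave smaller averages over the 3 days. Cxcr2 was at 0.29 ± 0.13 (SE; unadjusted p = 0.0343, adjusted p = 0.16, edgeR) and Fpr1, which passed the filter in the fit of all libraries, at 0.46 ± 0.25 (adjusted p = 0.23). Csf3r, Padi4 and S100a9 had averages of 0.17 ± 0.12, 0.17 ± 0.12 and 0.09 ± 0.16, S100a8 of 0.00 ± 0.17 and Trem1 of -0.05 ± 0.09 (SE; adjusted p 0.36 to 0.99). The median over the 8 members tested was 0.17, beside -0.01 over all genes tested.

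**Figure D2:**
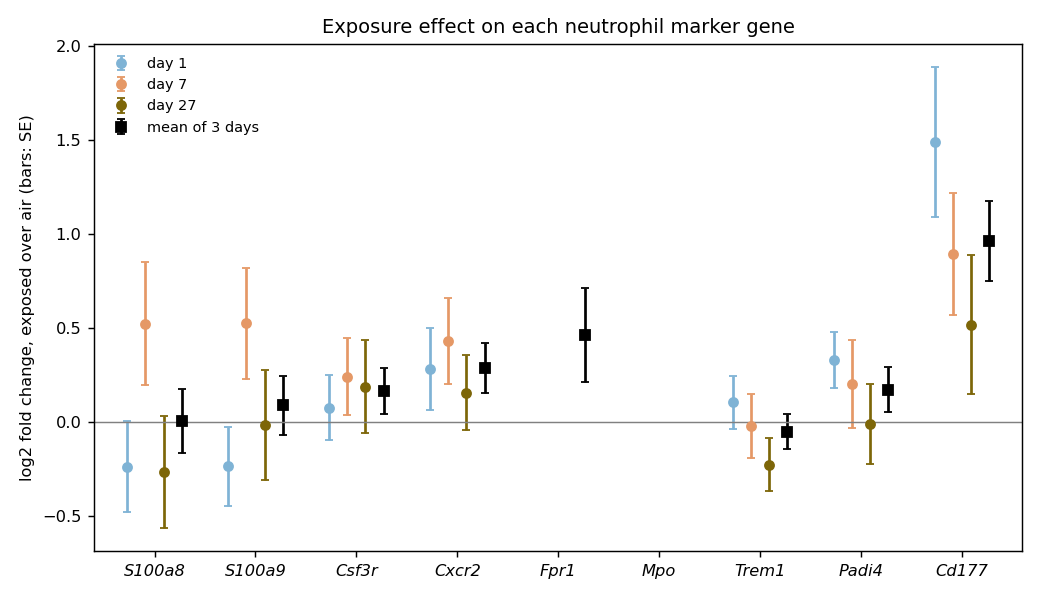
Log2 fold change of exposed over air lungs (vertical axis) for each neutrophil marker gene, at day 1, day 7 and day 27 and as the mean of the 3 days (black squares); bars are SE from edgeR. Cd177 lies above 0 at each day and at 0.96 on average, S100a8 and S100a9 lie above 0 at day 7 and below 0 at day 1 and day 27, and Fpr1 and Mpo, which failed the filter on low counts, have no daily value.

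Whether the exposure effect changed with time was tested as a difference of differences in the fit of all 48 libraries, and 0 of 8 members were called for day 7 against day 1, day 27 against day 1 or day 27 against day 7. The backgrounds were 0.0%, 0.498% and 0.0202% of 14852 genes, no member had an unadjusted p under 0.05 (7.5%, 14.6% and 14.9% of all genes), and DESeq2 and limma-voom also called 0 members in each. S100a9 came nearest between day 7 and day 1, where its effect differed by 0.76 ± 0.38 (SE; unadjusted p = 0.054, adjusted p = 0.68, edgeR). For Cd177 the effect at day 27 minus that at day 1 was -0.97 ± 0.52 (SE; unadjusted p = 0.069, adjusted p = 0.39, edgeR), so the smaller effects at the later days were not distinguishable from that of day 1.

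Air lungs also showed how much the markers differed between days without exposure. The day after exposure and the handling of that day cannot be told apart. From day 1 to day 7 in air, 0 of 8 members were called against 8.32% of all genes, although 2 had an unadjusted p under 0.05, as had 26.0% of all genes. These were S100a8, at -0.79 ± 0.30 (SE; adjusted p = 0.084), and S100a9, at -0.73 ± 0.27 (adjusted p = 0.082, edgeR). From day 7 to day 27 in air, 0 of 8 were called against 39.7% of all genes, and 1 had an unadjusted p under 0.05 against 47.7%. Cd177 was at 0.89 ± 0.38 in that interval (SE; adjusted p = 0.059, edgeR), which DESeq2 called. These differences between air groups were as large as several exposure effects of the same genes: S100a9 was at 0.53 for exposure at day 7, where its air group had the lowest mean of the 6 groups.

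Between animals of the same group, 4 members varied together. Deviations of log2 CPM from the group mean were correlated over the 48 libraries, with p-values from 100000 permutations within groups, two-sided and adjusted over 8 pairs of genes. S100a8 and S100a9 had a Pearson r of 0.96 and a Spearman rho of 0.94, S100a9 and Csf3r 0.91 and 0.90, and Csf3r and Cxcr2 0.89 and 0.91 (permutation p = 1e-05 for each, the smallest that 100000 permutations can give, adjusted p = 2e-05). Without the 2 libraries farthest from the median these r were 0.96, 0.90 and 0.88. S100a9 and Mpo had an r of -0.10 and a rho of -0.02 (permutation p = 0.55 and 0.911), and at the counts of Mpo a relation could not be detected.

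The lowest libraries were often shared as well. The same library was lowest for S100a8, S100a9, Csf3r and Cxcr2 in 4 of the 6 groups, namely library 8 of air day 1, library 6 of air day 7, library 4 of exposed day 7 and library 6 of exposed day 27. The highest library was the same for all 4 genes only in the exposed day 1 group (library 7), and it differed among them in the other groups. Padi4 and Trem1 followed these genes less closely, with r between 0.33 and 0.52. The erythroid gene Alas2, taken as a marker of blood in the tissue, had an r of 0.19 and a rho of 0.21 with S100a9 (permutation p = 0.244 and 0.182, adjusted p = 0.279 and 0.288), at 13.7 to 59.5 CPM.

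**Figure D3:**
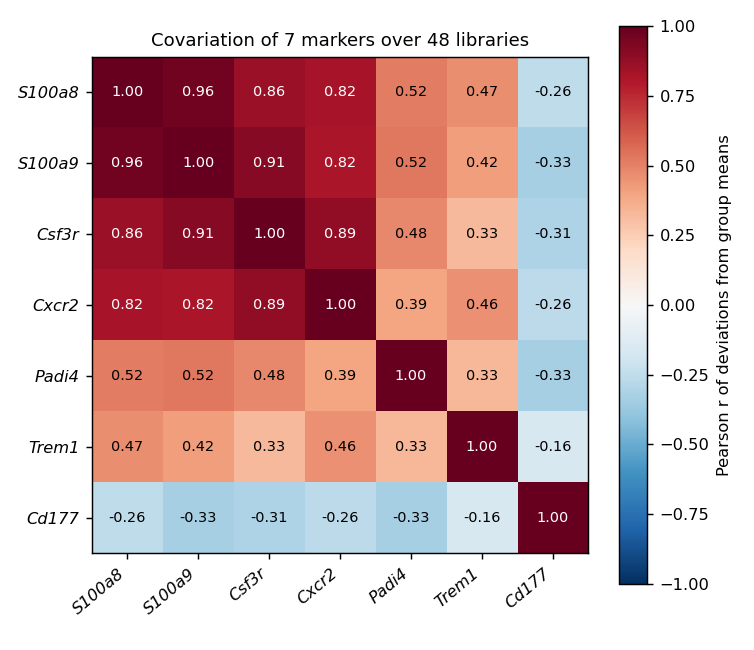
Pearson r of log2 CPM deviations from group means between each pair of the 7 members with a mean of at least 1 CPM, over 48 libraries; colour runs from -1 (blue) to 1 (red). S100a8, S100a9, Csf3r and Cxcr2 form a block with r from 0.82 to 0.96, and Cd177 has an r of -0.16 to -0.33 with each of the other 6.

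Cd177 did not vary with the others. Its r was between -0.33 and -0.16 with each of the other 6 members above 1 CPM. With S100a9 it had an r of -0.33 and a rho of -0.18 (permutation p = 0.0355 and 0.252, adjusted p = 0.0555 and 0.288), and r was -0.19 without the 2 farthest libraries, so its size rests in part on those. With Csf3r the r was -0.31 and the rho -0.18 (permutation p = 0.0417 and 0.249, adjusted p = 0.0555 and 0.288; r -0.20 without the 2 farthest). Exposed day 27 library 6 was 1 of the 2 farthest libraries for S100a9. It was the lowest of its group for S100a8 (11.5 CPM), S100a9 (33.0 CPM), Csf3r (20.01 CPM) and Cxcr2 (4.12 CPM) and the highest for Cd177 (55.0 CPM). Library 4 of the same group did not diverge in this way. It was the highest for Csf3r (69.0 CPM) and Cxcr2 (10.7 CPM), with Cd177 at 39.5 CPM against a group median of 22.9 CPM.

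Cd177 moved instead with Lcn2, which encodes lipocalin-2, a neutrophil granule protein that airway epithelium also makes. Over the 48 libraries their r was 0.75 and their rho 0.73 (permutation p = 1e-05, the smallest possible, adjusted p = 2e-05), and r was 0.71 without the 2 farthest libraries. Lcn2 ranked 2 among 14131 genes by r with Cd177 in these same deviations. The p is adjusted over the 8 pairs only and does not allow for a choice among that many genes. Lcn2 lay at 44.2 to 150 CPM in air (median 77.3) and 86.3 to 403 CPM in exposed lungs (median 165) at day 1, and all 8 exposed libraries stood above the air mean. Its log2 fold change was 1.34 ± 0.34 (SE; adjusted p = 0.32) at day 1, 0.45 ± 0.31 at day 7 and 0.15 ± 0.26 at day 27, and 0.64 ± 0.18 (adjusted p = 0.025, edgeR) for the average over the 3 days. The pairs with Cd177 and with Alas2 were added after the values of the members were seen.

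**Figure D4:**
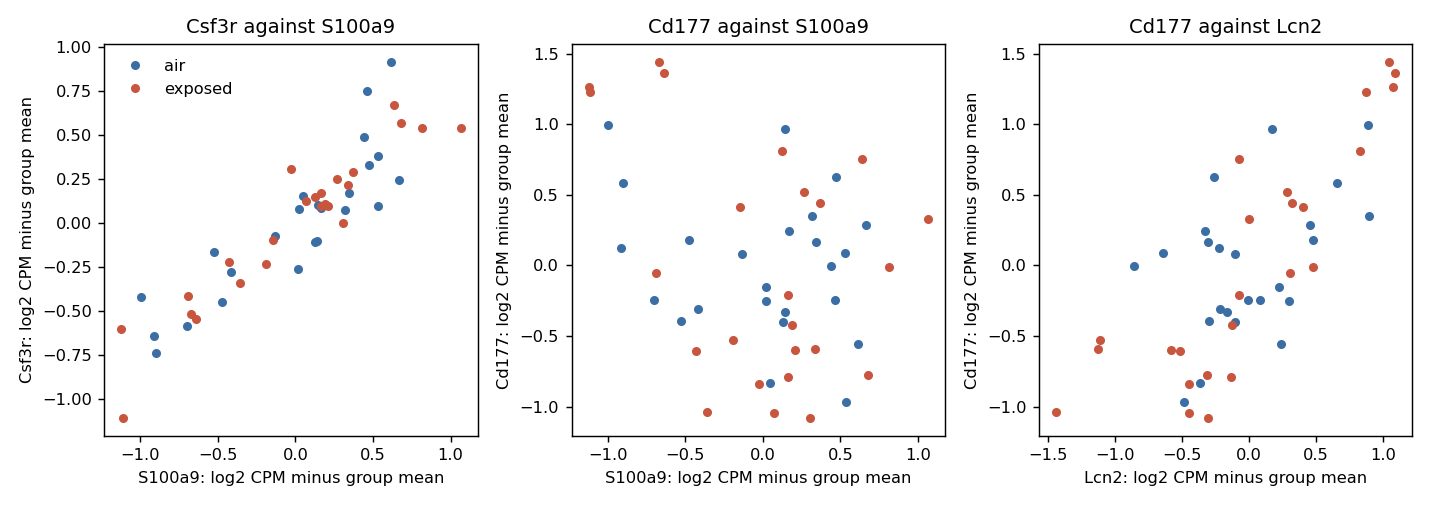
Log2 CPM minus the group mean in each of 48 libraries (air blue, exposed red) for Csf3r against S100a9, Cd177 against S100a9 and Cd177 against Lcn2. The points follow a line in the left panel (r 0.91) and more loosely in the right panel (r 0.75), and in the middle panel (r -0.33) the libraries with the lowest S100a9 include several with high Cd177.

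Among 14131 genes with a mean of at least 1 CPM, those among the most like the mean of the 7 members in deviation from group means over the 48 libraries were Pla2g7 (r 0.91), which inactivates platelet-activating factor, Ifit1lb (0.85), Lrg1 (0.82), the stefin Stfa2 (0.81), Il1b (0.81), its antagonist Il1rn (0.81) and the inflammasome sensor Nlrp3 (0.81). For S100a9 alone they were Pla2g7 (0.90), Ifit1lb (0.88), Stfa2l3 (0.86), Il1b (0.84) and Nlrp3 (0.84). None of these 8 genes was called at any day or on average, with the largest value for Il1b at day 7 (0.50 ± 0.22, SE; unadjusted p = 0.041, adjusted p = 0.58, edgeR). The genes most like Cd177 were others: Pigr (0.77), which carries antibodies across epithelium, Lcn2 (0.75), Noxo1 (0.73), the complement gene C3 (0.71) and LOC100909700 (0.71).

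The Cd177 counts carry a limit that the other members lack. Its expected counts were not whole numbers in all 48 libraries, while those of the other 8 members were whole in all of them. In 48 of 48 libraries the fractional parts of Cd177 and LOC100909700 added to a whole number within 0.01, and the next best gene did so in 5. Reads were therefore divided between these identifiers by the estimate, and LOC100909700 held 2.42% to 29.4% of their sum (median 14.3%). With the 2 identifiers summed, the log2 fold change was 1.54 at day 1 (adjusted p = 0.31) and 0.98 for the average (adjusted p = 0.00695, edgeR), with the same direction and calls as before. The likeness of LOC100909700 to Cd177 is not independent, since they share these reads.

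The genes that attract neutrophils and act with the members were read from 9 lists of related function. Over these lists 0 of 64, 0 of 65 and 3 of 64 genes tested were called at day 1, 7 and 27, the last 4.69% beside 5.52% of all genes. The 3 calls at day 27 were read only from the edgeR fit of every library of that day. Over all genes, the 783 calls of that fit became 31 with the closest pairs summed, so single calls at day 27 depend on the processing. For the average over the 3 days 7 of 67 were called, 4 higher and 3 lower, or 10.4% beside 6.88% of all genes. A single call in a list this short is too few to compare with that share. Of 12 attractants 7 to 8 were tested at a given day and 0 were called. For the average over the 3 days, where 3.15% of all genes were called higher, 9 were tested and 2 were called, both higher. These were the Cxcr2 ligands Cxcl1, at 0.49 ± 0.10 (SE; adjusted p = 0.0051), and Cxcl2, at 0.62 ± 0.19 (adjusted p = 0.043, edgeR). Other CXC chemokines of the list were not called. Cxcl3, with group means between 160.7 and 180.8 CPM, averaged -0.01 ± 0.05 (SE; adjusted p = 0.93, edgeR). Ppbp averaged -0.11 ± 0.18 (adjusted p = 0.73) and Cxcl6 0.73 ± 0.28 (adjusted p = 0.095). Of the 9 tested, 6 averaged above 0 and 3 below. Cxcl1 averaged 8.28 ± 2.51 CPM (SD, n = 8) in air lungs against 12.5 ± 4.98 CPM (n = 7) after exposure at day 1, 9.80 ± 1.86 and 13.01 ± 2.21 at day 7 (n = 7 each), and 16.8 ± 3.35 (n = 7) and 20.9 ± 2.10 (n = 8) at day 27. Cxcl2 was low, with group means between 0.44 and 0.97 CPM. The attractants Csf3, Il17a and Il6 had group means under 0.3 CPM. The list's median log2 fold change for the average was 0.14, beside -0.01 over all genes.

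Of 16 receptors shared by neutrophils and other myeloid cells 0 were called at day 1 and day 7, and at day 27 1 of 15 tested, or about the share of all genes, was called: C5ar1, the complement C5a receptor, fell from 39.0 ± 5.20 CPM in air (SD, n = 7) to 31.7 ± 3.74 CPM (n = 8), a log2 fold change of -0.30 ± 0.08 (SE; adjusted p = 0.043, edgeR). On average 1 of 16 was called, beside 6.88% of all genes. It was the chemokine receptor Cxcr4, which retains neutrophils in marrow, at -0.14 ± 0.04 (adjusted p = 0.032). The 8 adhesion and migration genes had 0 calls at each day and 1 on average, beside 6.88% of all genes. It was Icam1, the endothelial ligand of neutrophil integrins, at -0.10 ± 0.03 (adjusted p = 0.027). In the pathway of leukotriene B4, a lipid attractant of neutrophils, 0 of 3 tested genes were called at each day. On average 1 of 4 was called, beside 6.88% of all genes. It was Lta4h, the enzyme that forms leukotriene B4, at -0.12 ± 0.03 (adjusted p = 0.026).

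Of 16 granule proteins with a row, 10 were tested, and 0 were called at day 1 and day 7. At day 27 1 was called, lysozyme Lyz2, also made by macrophages and alveolar cells, which fell from 18310 ± 2105 CPM in air (SD, n = 7) to 15640 ± 1194 CPM (n = 8), at -0.24 ± 0.07 (SE; adjusted p = 0.043, edgeR). On average 1 was called, beside 6.88% of all genes, and it was Lcn2, given above. The granule peptide genes Ngp and Camp, made late in neutrophil maturation, had averages of -0.68 ± 0.25 (adjusted p = 0.082) and -0.48 ± 0.17 (adjusted p = 0.067), opposite in sign to Lcn2 and not past the threshold; they were singled out after their values were seen. Of the 7 NADPH oxidase genes of the oxidative burst, 0 were called at day 1 and day 7, and at day 27 1 fell: Cyba, from 68.3 ± 9.52 CPM (SD, n = 7) to 54.6 ± 5.70 CPM (n = 8), at -0.33 ± 0.08 (adjusted p = 0.032). On average 1 of the 7 was called, beside 6.88% of all genes, and it was Cybb, at 0.13 ± 0.04 (adjusted p = 0.041). Of 6 further neutrophil transcripts and 6 granulocyte transcription factors, 0 were called at any day or on average, and of Padi1, Padi2, Padi3 and Padi6 only Padi2 passed the filter, with daily log2 fold changes from -0.09 to 0.10.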

How the data were processed

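Each library is polyadenylated RNA from a piece of 1 rat lung, prepared with a kit that preserves strand, per the labels' protocols. The authors deposited 1 table per day of expected counts, which are estimated numbers of fragments and can be fractional, without normalization. STAR 2.6.1d, Salmon 1.10.1, Trim Galore 0.6.7, cutadapt 3.4, bcl2fastq 2.19 and the build Rnor_6.0 are listed in the submitters' processing notes, and their settings are not given in the sources used here. Of the deposited values 5.58% were not whole, and all were rounded before testing. Groups, days and animal numbers came from the labels.

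Each day was tested with edgeR 4.0.16 (R 4.3.3): TMM factors, filterByExpr, robust quasi-likelihood F test, Benjamini-Hochberg adjustment over all genes tested, threshold 0.05. The mean over 3 days, differences between days and changes in air lungs are contrasts of 1 fit of 48 libraries. SE is the log2 fold change divided by the square root of F. CPM uses TMM factors, and log2 CPM for correlations a prior count of 2. The tests were tried on simulated counts first. The alternatives were RLE size factors, no filter, a filter at 1 CPM on the mean, limma-voom (limma 3.58.1), DESeq2 1.42.0, 1 fit of all libraries, the closest pairs summed, and each library left out.

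The members and the 19 gene lists (131 of 138 genes with a row; the identifier with most counts stands for its name) were chosen with earlier results of these data known. Named list genes are those called at any day, up to 2 per list and day. Named like genes are the 8 most correlated with the mean of the members and the 5 most correlated with S100a9; 1 of the former is not reported here. Other names, including every list gene named for the average over the 3 days and the genes like Cd177, were chosen after their values were seen. CPM is not corrected for gene length, so levels are compared within a gene. The intervals of a count of 0 cover counting error only.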

Additional observations from a re-analysis of the deposited data

Results flagged for a closer look

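Of 54 combinations of a member and a group of 8 libraries, 1 held a library far from the rest, and chance gives such a gap in about 1 of 20. Csf3r in air lungs at day 27 was at 72.99 CPM in library 8, while the next highest library was at 43.52 CPM. The gap was 0.611 of the group's range, above the critical value of 0.526 for 8 libraries. Library 8 was also the highest of that group for S100a9 (112 CPM) and Cxcr2 (8.92 CPM). No member was called at day 27 with this library or without it.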

How the results depend on the processing

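Over all genes, calls moved with the method. At day 1 the 4 calls became 2 with no filter, 42 with DESeq2, 0 with the closest pairs summed, 14 in a fit of all 48 libraries, and 0 to 17 without 1 library (0 without exposed library 1 or 4 and 17 without exposed library 3). At day 7 the 0 calls (1208 genes at an unadjusted p under 0.05) became 30 with DESeq2, 1 in the fit of all libraries, and 0 to 11 without 1 library (11 without exposed library 5). At day 27 the 783 calls became 474 with no filter, 1675 with DESeq2, 31 with the closest pairs summed, 2227 in the fit of all libraries, and 9 to 1926 without 1 library (9 without exposed library 3, 1926 without air library 2, 111 without air library 7). The cause was not tested. The background at day 27 therefore depends on single libraries, while the members called stayed at 0 of 7 at each day in every fit without 1 library.

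With DESeq2, 1 member (Cd177) was called at day 1 and 1 (Cd177) in air lungs from day 7 to day 27, where edgeR called 0. The r of S100a9 and Cd177 was -0.30 and that of Csf3r and Cd177 -0.28 with the close pairs averaged. Of 911 alternative values of single members' fold changes, 871 kept their direction and side of the threshold, 1 passed it (Cd177 at day 1, 1.49 by DESeq2) and 39 changed sign, each of them near 0. With limma-voom, Padi4 at day 27 was at 0.007 and S100a8 on average at -0.014. Without 1 library, Csf3r at day 1 ran from -0.016 to 0.155, Trem1 at day 7 from -0.159 to 0.082, Padi4 at day 27 from -0.099 to 0.11, S100a9 at day 27 from -0.152 to 0.099, and S100a8 on average from -0.068 to 0.048. No paired analysis was possible because animal numbers are unique to each group.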

Other observations

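Of 39 genes tested on 8 lists of other immune and blood cells, 3 were called at day 27, or 7.69% beside 5.52% of all genes, all 3 lower. These calls were read only from the edgeR fit of every library of that day. Over all genes, the 783 calls of that fit became 31 with the closest pairs summed and as few as 9 without 1 library. Whether these 3 genes stayed among them is not given here. The B cell gene Cd79a fell from 33.9 ± 12.2 CPM in air (SD, n = 7) to 21.0 ± 4.39 CPM in exposed lungs (n = 8), at a log2 fold change of -0.80 ± 0.20 (SE; adjusted p = 0.037, edgeR). The basophil protease Mcpt8 fell from 13.2 ± 5.95 to 7.66 ± 1.90 CPM, at -0.89 ± 0.25 (adjusted p = 0.048). The lipid droplet gene Cidec, listed with alveolar macrophages, fell from 3.95 ± 0.94 to 2.57 ± 0.68 CPM, at -0.68 ± 0.19 (adjusted p = 0.046). For the average over the 3 days the share was again 7.69%, beside 6.88% of all genes. In that average Cidec was at -0.60 ± 0.11 (adjusted p = 0.0025), Cd79a at -0.39 ± 0.09 (adjusted p = 0.012) and the scavenger receptor gene Olr1 at -0.18 ± 0.06 (adjusted p = 0.046). Tested as a difference of differences, the exposure effect at day 27 was not distinguishable from that at day 1 or day 7 for Cd79a, Mcpt8 or Cidec (adjusted p 0.13 to 0.88, edgeR). Of 6 monocyte, 5 mast cell and basophil, 5 T cell, 6 platelet, 5 red cell and 2 eosinophil genes tested for that average, 0 were called by edgeR.

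Cxcr1, the other receptor of the Cxcr2 pair, was singled out after its values were seen. At day 1 air lungs held 5.75 ± 1.89 CPM (SD, n = 8) and exposed lungs 10.9 ± 3.14 CPM (n = 7), with a log2 fold change of 0.97 ± 0.23 (SE; unadjusted p = 0.00062, adjusted p = 0.25, edgeR). The Cxcr1 log2 fold change was 0.28 ± 0.22 (adjusted p = 0.77) at day 7 and -0.26 ± 0.13 (adjusted p = 0.22) at day 27. On average over the 3 days it was 0.33 ± 0.12 (adjusted p = 0.083, edgeR).

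Among the genes whose deviations were most like those of Cd177, the complement gene C3 was higher in exposed lungs on average over the 3 days, at 0.28 ± 0.07 (SE; adjusted p = 0.012, edgeR), as was LOC100909700, at 1.11 ± 0.27 (adjusted p = 0.012), which shares reads with Cd177. Pigr was at 0.12 ± 0.05 (adjusted p = 0.11) and Noxo1 at 0.31 ± 0.15 (adjusted p = 0.17).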
